A study of Mus musculus with 18 samples.

Results

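A set of 10 chemokine receptors of the homing and lymphoid groups was followed across 18 RNA sequencing libraries of mouse leukocytes from inflamed joint, inflamed skin and the lymph nodes that drain them. The receptors were Ccr4, Ccr6, Ccr7, Ccr8, Ccr9, Ccr10, Cxcr3, Cxcr4, Cxcr5 and Cxcr6. They were chosen by gene name, and all 10 were found among the 49585 genes of the count table. Kaede mice, whose cells carry a fluorescent protein that light turns from green to red, were 6 to 10 weeks old and received OVA-specific Th1 cells from OT-II CD45.1 mice, then 100 µg of OVA in complete Freund's adjuvant. They were challenged with 100 µg of heat-aggregated ovalbumin (HAO) in the footpad (joint) or the ear pinna (skin), the site was photoconverted on day 3, and viable CD45+ Kaede red+ cells were sorted 24 h later. Red cells still in the tissue are the nonmigrated group, and red cells in the popliteal (joint) or auricular (skin) node are the migrated group.

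There were 6 groups of 3 libraries, namely nonmigrated, migrated and steady state for each site. The steady-state groups carry the labels of leukocytes that had moved from joint or ear to the node without inflammation. Their titles read PBS and KG for the joint and Naive for the skin, and KG is not explained in the labels. The labels give 1 protocol for all samples, with PBS as the alternative challenge, and do not say whether the Naive mice received the Th1 cells and the adjuvant or whether steady-state cells were sorted as red. Each inflamed library came from pooled mice of both sexes, so the p-values among inflamed groups measure the spread between pools. The paper does not describe pooling or sex for the steady-state libraries. The p-values that involve them measure the spread between libraries. The sort of inflamed cells used CD45 and Kaede red only, so a library is a mixture of all leukocytes, and in such bulk samples fewer cells of a type and less RNA per cell cannot be told apart.

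Chemokine receptors are G protein-coupled receptors that steer leukocytes along gradients of secreted chemokines. Ccr7 takes dendritic cells and T cells through lymphatic vessels into nodes, Cxcr5 places B cells in follicles, and Cxcr4 holds cells near Cxcl12-producing stroma. Cxcr3, Cxcr6 and Ccr6 are carried by effector T cells of the type 1 and type 17 kinds, Ccr4, Ccr8 and Ccr10 are linked with entry into skin and with regulatory T cells, and Ccr9 is linked with the gut and thymus.

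Reads assigned to genes ran from 19239531 to 22528895 in the 6 inflamed skin libraries, from 35554698 to 43814403 in the 6 inflamed joint libraries, and from 28577566 to 42938378 in the 6 steady-state libraries. Column names of the inflamed skin libraries end in S numbers, and those of all other libraries in R numbers. Comparisons of inflamed joint with inflamed skin, and of skin migrated with skin steady state, cannot be told apart from this difference. The same holds for the inflammation interaction. Levels are given as CPM, the counts of a gene scaled to a common library size, with TMM factors, and 3 reads correspond to 0.0616 to 0.18 CPM. Summed marker levels differed between the groups whose receptors are compared. The sum of 6 T cell markers was 122 to 252 CPM in joint nonmigrated and 1069 to 1510 CPM in joint migrated libraries. The sum of 5 mature dendritic cell markers was 61.8 to 84.9 CPM and 1873 to 4873 CPM in the same groups. Macrophage and neutrophil markers ran the other way, with 6 of 7 and 5 of 5 called lower in migrated cells at both sites. The library labelled skin nonmigrated replicate 3 stood apart from the other 2 of its group, with T cell markers at 261 CPM against 626 and 695 CPM, mature dendritic cell markers at 270 CPM against 590 and 917 CPM, and macrophage markers at 7172 CPM against 3535 and 2366 CPM. Skin results that changed call or size without it are given both ways.

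**Figure D1:**
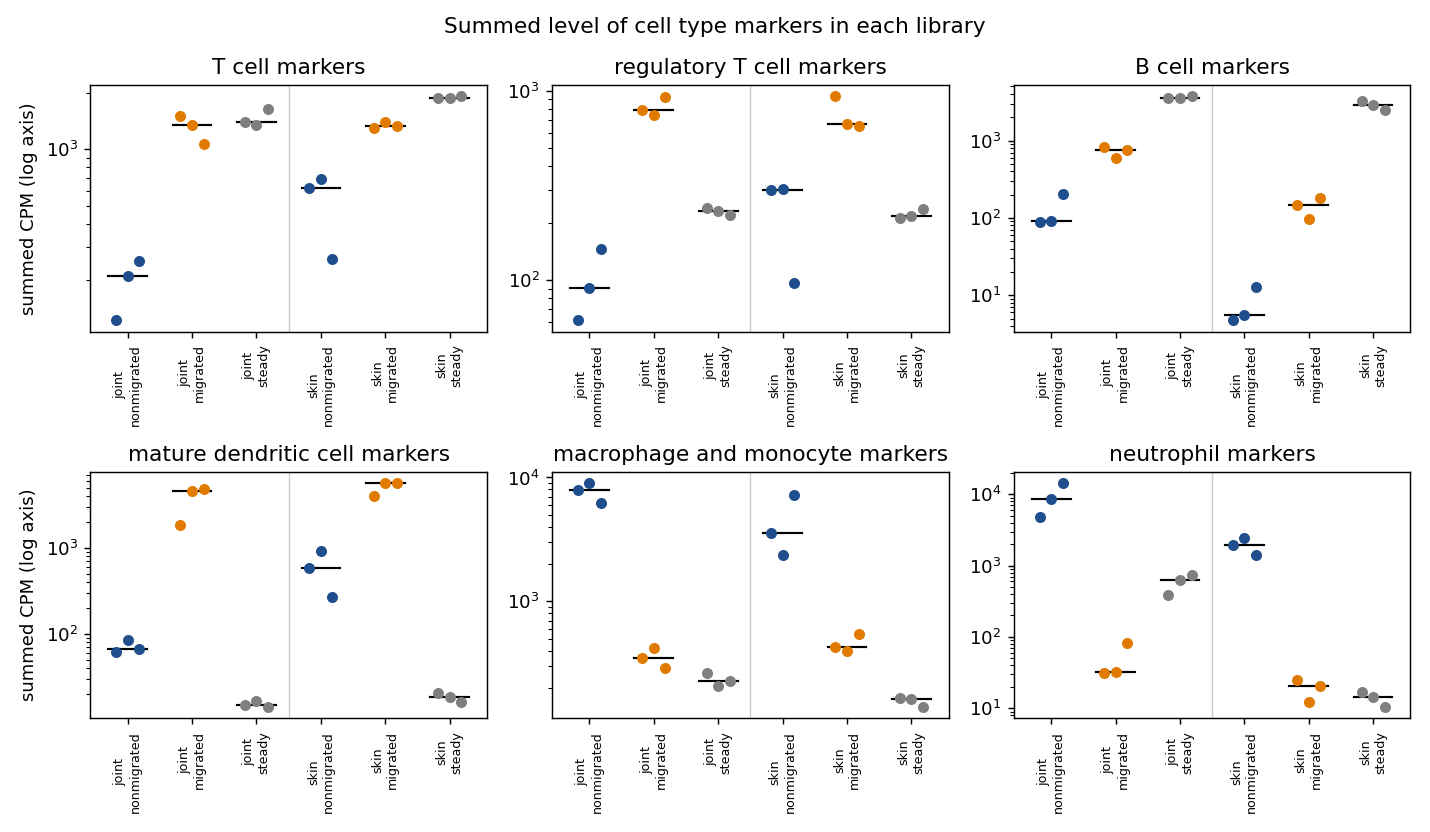
Summed level (CPM, log axis) of marker lists for leukocyte types in each group. Points are libraries and lines are group medians. Mature dendritic cell markers sit at 14.2 to 20.7 CPM in the steady-state groups and at 1873 to 5737 CPM in the migrated groups.

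The steady-state libraries differed from migrated libraries in these markers as well. Mature dendritic cell markers summed to 14.2 to 20.7 CPM in the 6 libraries, below every nonmigrated library. B cell markers summed to 3529 to 3750 CPM and 2466 to 3282 CPM, above every other library. Ptprc, which encodes the CD45 used in the sort, was present at 1155 to 2530 CPM in all 18 libraries. Fibroblast markers summed to 54.5 to 171 CPM in joint and 27.3 to 108 CPM in skin nonmigrated libraries, against 0.214 to 1.52 CPM elsewhere. Keratinocyte markers summed to 23.3 to 272 CPM in skin nonmigrated libraries and 0.299 to 2.24 CPM elsewhere. The summed endothelial markers, Pecam1 and Cdh5, were highest in steady-state libraries, at 210 to 258 CPM. The genes went opposite ways in joint migrated relative to joint steady-state cells, with log2 fold changes of -1.27 for Pecam1 and 0.95 for Cdh5. In skin both were lower in migrated cells, at -2.15 and -1.02. Only the Pecam1 differences were called. RNA of cells other than leukocytes was thus not excluded, and its part in the results was not tested.

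Levels were also divided by the total annotated exon length of each gene (CPM per kb of exon). On this scale Ccr7 was the highest of the 10 receptors in migrated cells, with group means of 592 in the joint and 557 in the skin. Cxcr4 was the highest in joint nonmigrated cells at 251 CPM per kb, and in skin nonmigrated cells it stood at 127 beside Ccr7 at 124. Ccr10 was the lowest in both nonmigrated and both steady-state groups, and Ccr9 was the lowest in both migrated groups, at 1.22 and 0.415 CPM per kb. The Ccr9 rank depends on its 10260 annotated exon bases. In CPM, Ccr9 was above Ccr10 in migrated cells, at 12.5 against 4.61 in joint and 4.26 against 3.12 in skin. Ccr10 was counted with only 11 to 342 reads a library, so its values carry the widest counting error of the set. Across the 6 group means in CPM, Cxcr5 covered the widest range, 47.7-fold, followed by Ccr6 at 40.5-fold and Ccr7 at 29.2-fold. Cxcr4 covered the narrowest, 2.96-fold.

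**Figure D2:**
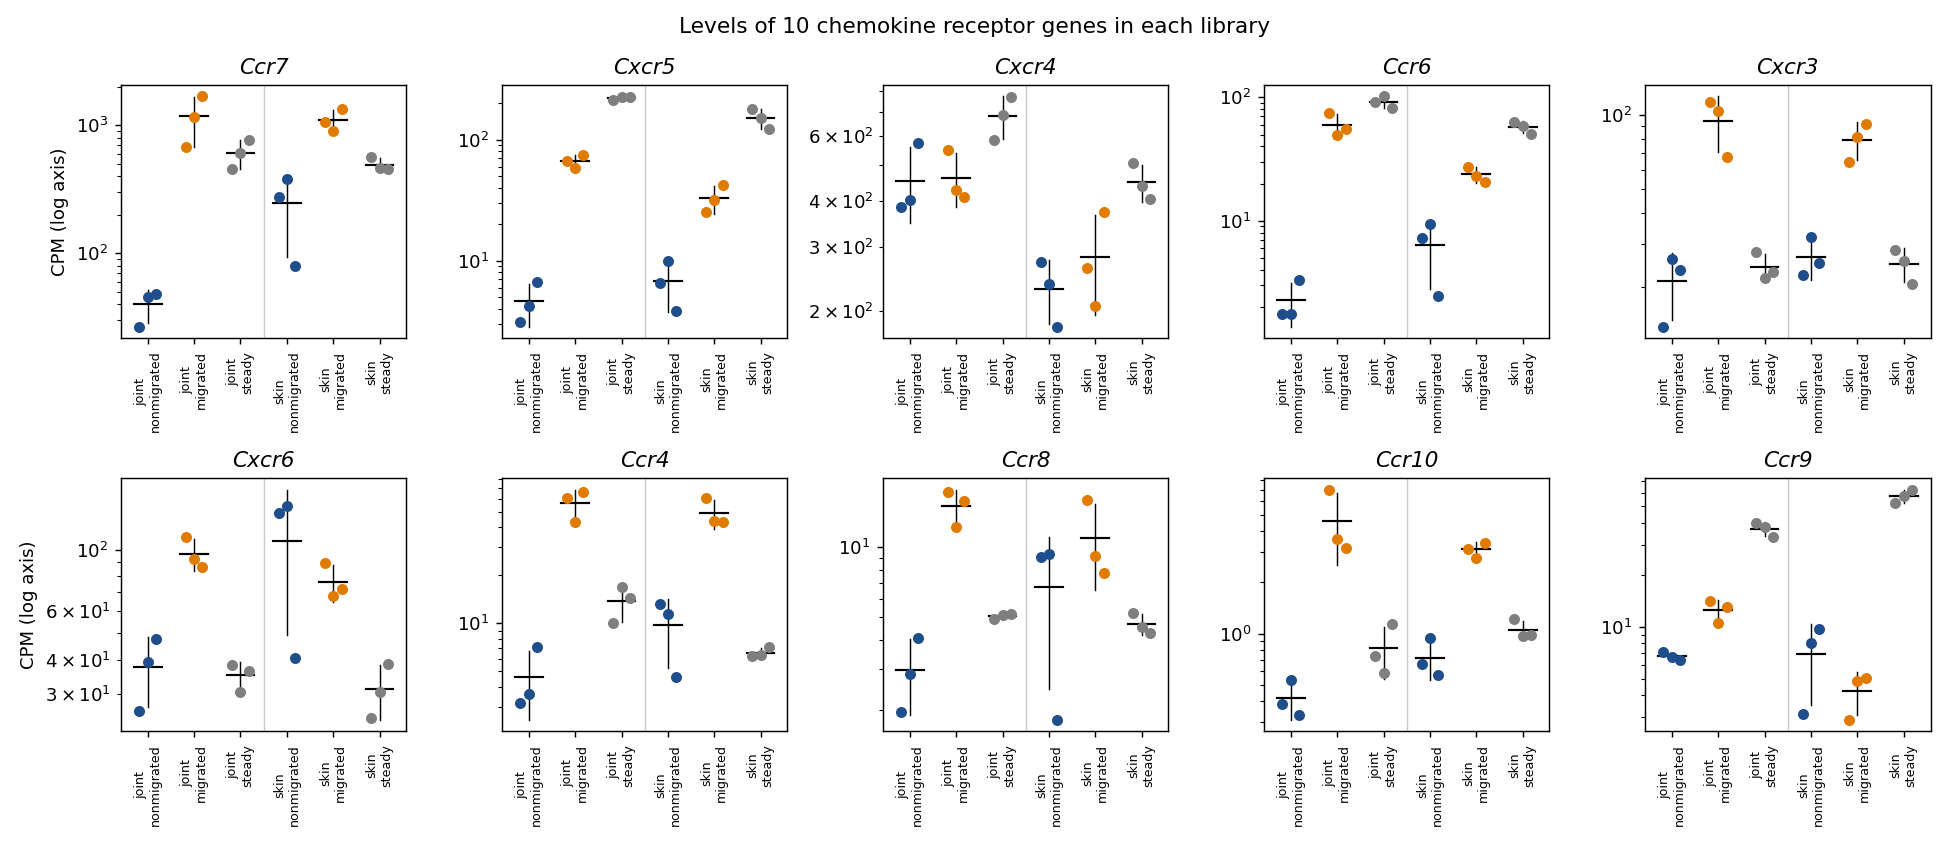
Level of each receptor (CPM, log axis) in the 6 groups. Points are libraries, lines are means and bars are SD (n = 3). Ccr7 is at 680.0 CPM or more in every migrated library, and Cxcr5, Ccr6 and Ccr9 peak in the steady-state groups.

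Cells that had left the inflamed joint were compared with cells that stayed. Calls required an adjusted p under 0.001 from edgeR's quasi-likelihood test (Benjamini-Hochberg method) and a log2 fold change larger than 1 in size. All 10 receptors passed the filter on low counts. Of these, 6 (Ccr4, Ccr6, Ccr7, Ccr10, Cxcr3 and Cxcr5) were called higher in joint migrated cells and 0 were called lower, where 8.80% of 16777 genes were called higher, 12.6% lower and 21.4% were called in either direction. The median log2 fold change was 2.90 over the 10 receptors and 0.02 over all genes tested. In skin 4 of the 10, Ccr4, Ccr10, Cxcr3 and Cxcr5, were called higher and 0 lower, against backgrounds of 8.49% higher, 12.4% lower and 20.9% in either direction, with a median of 1.74 for the receptors and 0.01 for all genes. All 6 joint calls were made again in each of the 6 fits that left out 1 library. The skin calls were less stable. Ccr4 was not called without skin migrated replicate 1 (adjusted p = 0.00157) or skin nonmigrated replicate 2 (adjusted p = 0.00102), and Cxcr5 was not called without skin migrated replicate 3 (adjusted p = 0.001) or skin nonmigrated replicate 1 (adjusted p = 0.00134). Ccr10 lost its call in 5 of the 6 such fits, all but the one without skin nonmigrated replicate 2, with adjusted p from 0.00153 to 0.00313. Cxcr3 lost its call in 4, those without skin migrated replicates 2 and 3 and skin nonmigrated replicates 1 and 3, with adjusted p from 0.0014 to 0.00242. Without skin nonmigrated replicate 3, the library that stood apart, Ccr4 (2.00), Cxcr5 (2.00) and Ccr6 (1.50) were called, where 18.8% of genes were. In a fit of the skin groups compared alone, Cxcr3 (adjusted p = 0.000572) was the only call, where 2111 of 14786 genes were called. In a fit with a term for replicate number within each site, the replicate block, Ccr4 was the only call, where 2750 of 16777 genes were called. Between 1 and 4 of the 10 receptors were called in the skin fits that left out 1 library, and each of the 4 kept a log2 fold change above 1.

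**Figure D3:**
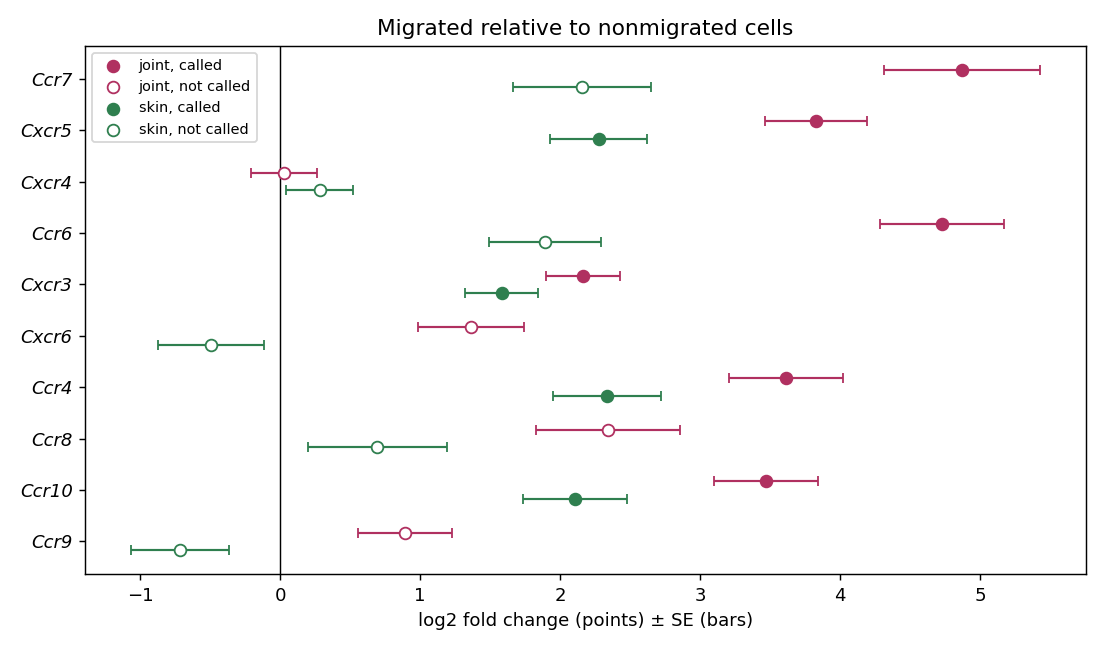
Log2 fold change of each receptor, migrated over nonmigrated, in joint (pink) and skin (green). Filled points are called (adjusted p under 0.001, absolute log2 fold change above 1), open points are not, and bars are SE. Ccr7, Ccr6 and Cxcr5 lie farthest right in the joint at 4.87, 4.73 and 3.83, and Cxcr4 lies near 0 in both sites.

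Of the receptors that guide cells into and within nodes, Ccr7 (ENSMUSG00000037944, chromosome 11, 99144196 to 99155077, minus strand of mm10) was at 26.8, 45.2 and 48.3 CPM in the 3 joint nonmigrated libraries and 680.0, 1156 and 1679 CPM in the joint migrated libraries. In skin it was at 275, 383 and 80.2 CPM in nonmigrated and 1059, 906 and 1340.3 CPM in migrated libraries. The groups did not overlap at either site, and the low skin value belonged to nonmigrated replicate 3. The log2 fold change was 4.87 ± 0.56 (SE) in joint, adjusted p = 2.34e-05, and 2.16 ± 0.49 in skin, adjusted p = 0.00299, which missed the threshold. Without skin nonmigrated replicate 3 the skin value was 1.74, adjusted p = 0.00228. Among joint migrated libraries replicate 1 had both the lowest Ccr7 and the lowest mature dendritic cell marker sum, 1873 CPM.

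Cxcr5 (ENSMUSG00000047880, chromosome 9, 44511787 to 44561877, minus strand), the receptor for Cxcl13 that marks follicular B cells and follicular helper T cells, was at 3.09, 4.25 and 6.61 CPM in joint nonmigrated and 66.3, 57.9 and 74.1 CPM in joint migrated libraries. In skin it was at 6.60, 9.93 and 3.85 CPM and 25.1, 32.0 and 41.9 CPM. Every migrated library was above every nonmigrated library of its site, and the joint migrated libraries were also all above the skin migrated ones. The log2 fold changes were 3.83 ± 0.36 in joint, adjusted p = 6.03e-06, and 2.28 ± 0.35 in skin, adjusted p = 0.000191. B cell markers moved in the same direction, with 4 of 5 called higher in joint and 5 of 5 in skin, and sums of 89.5 to 207 CPM against 588 to 831 CPM in joint and 4.74 to 12.7 CPM against 96.2 to 179 CPM in skin. The part of B cells in the Cxcr5 difference was not tested.

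Cxcr4 (ENSMUSG00000045382, chromosome 1, 128588199 to 128592293, minus strand), the receptor for Cxcl12, differed from these. Its levels were 385, 402 and 576 CPM in joint nonmigrated and 552, 427 and 409.9 CPM in joint migrated libraries. Skin nonmigrated libraries held 272, 237 and 182 CPM and skin migrated libraries 262, 206 and 373 CPM. The groups overlapped at both sites, and the log2 fold changes were 0.03 ± 0.24 in joint, adjusted p = 0.933, and 0.28 ± 0.24 in skin, adjusted p = 0.333, or 0.14 in skin without nonmigrated replicate 3. It was the only receptor of the 10 not called in any of the 9 comparisons and interaction terms.

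Of the receptors of effector cells, Ccr6 (ENSMUSG00000040899, chromosome 17, 8236043 to 8257141, plus strand), the receptor for Ccl20 on B cells and type 17 T cells, was at 1.75, 1.76 and 3.28 CPM in joint nonmigrated and 74.5, 49.8 and 55.7 CPM in joint migrated libraries. In skin it was at 7.26, 9.47 and 2.44 CPM and 27.4, 23.1 and 20.7 CPM. The groups were apart at both sites, with a log2 fold change of 4.73 ± 0.44 in joint, adjusted p = 5.45e-06. The skin value was 1.89 ± 0.40 with adjusted p = 0.00172, and of the 6 fits that left out a library it was called in 2, those without skin nonmigrated replicates 2 and 3.

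Cxcr3 (ENSMUSG00000050232, chromosome X, 101731535 to 101734269, minus strand), which answers to the interferon-induced chemokines Cxcl9, Cxcl10 and Cxcl11 on Th1 cells, was at 13.9, 26.1 and 23.6 CPM in joint nonmigrated and 113, 104 and 67.3 CPM in joint migrated libraries. Skin nonmigrated libraries held 22.4, 32.0 and 25.0 CPM and skin migrated libraries 64.7, 81.6 and 92.4 CPM. Both sites showed groups apart, with log2 fold changes of 2.16 ± 0.26, adjusted p = 3.75e-05, and 1.58 ± 0.26, adjusted p = 0.00034. Skin nonmigrated replicate 3, low for most receptors, was not low for Cxcr3.

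Cxcr6 (ENSMUSG00000048521, chromosome 9, 123806475 to 123811760, plus strand), the receptor for Cxcl16 on tissue-resident and effector T cells, had another pattern. In the joint it was at 26.1, 39.3 and 47.3 CPM in nonmigrated and 111, 92.6 and 86.4 CPM in migrated libraries, which did not overlap. In skin the nonmigrated libraries were at 136, 145 and 40.4 CPM, on both sides of the migrated libraries at 89.6, 67.8 and 71.9 CPM. Neither site passed the threshold, with log2 fold changes of 1.36 ± 0.38, adjusted p = 0.00967, and -0.49 ± 0.38, adjusted p = 0.283. The overlap in skin rested on nonmigrated replicate 3, at 40.4 CPM. Without it both nonmigrated libraries were above all 3 migrated ones, and the value was -0.88 with adjusted p = 0.00474, still not called.

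Of the receptors linked with skin and regulatory T cells, Ccr4 (ENSMUSG00000047898, chromosome 9, 114490316 to 114504916, minus strand), which binds Ccl17 and Ccl22, was at 3.17, 3.62 and 7.06 CPM in joint nonmigrated and 60.5, 43.0 and 66.2 CPM in joint migrated libraries. In skin it was at 13.1, 11.4 and 4.63 CPM and 60.9, 43.7 and 42.9 CPM. The groups were apart at both sites and the migrated levels of the sites overlapped. The log2 fold changes were 3.62 ± 0.41, adjusted p = 1.96e-05, and 2.34 ± 0.39, adjusted p = 0.000338. Regulatory T cell markers summed to 61.2 to 145 CPM in joint nonmigrated and 742 to 926 CPM in joint migrated libraries, with 3 of 4 called higher in joint and 2 of 4 in skin. Their part in the Ccr4 difference was not tested.

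Ccr10 (ENSMUSG00000044052, chromosome 11, 101172997 to 101175443, minus strand), a receptor for Ccl27 and Ccl28, was at 0.383, 0.531 and 0.331 CPM in joint nonmigrated and 7.02, 3.62 and 3.19 CPM in joint migrated libraries, and at 0.660, 0.935 and 0.572 CPM and 3.16, 2.80 and 3.41 CPM in skin. All migrated libraries were above all nonmigrated ones. The log2 fold changes were 3.47 ± 0.37, adjusted p = 1.45e-05, and 2.11 ± 0.37, adjusted p = 0.000508. Ccr8 (ENSMUSG00000042262, chromosome 9, 120092114 to 120094906, plus strand), a receptor for Ccl1 and Ccl8, was at 1.97, 2.86 and 4.09 CPM and 17.2, 12.2 and 15.7 CPM in joint. In skin its nonmigrated libraries at 9.05, 9.35 and 1.82 CPM overlapped the migrated ones at 15.9, 9.14 and 7.75 CPM. Its values were 2.34 ± 0.51 in joint, adjusted p = 0.0023, and 0.70 ± 0.50 in skin, adjusted p = 0.253, and neither passed. The skin value of Ccr8 without nonmigrated replicate 3 was 0.25, adjusted p = 0.562.

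Ccr9 (ENSMUSG00000029530, chromosome 9, 123678439 to 123784330, plus strand), the receptor for Ccl25, was at 7.11, 6.68 and 6.43 CPM in joint nonmigrated and 14.1, 10.5 and 13.0 CPM in joint migrated libraries, all above. In skin it was at 3.12, 8.06 and 9.72 CPM in nonmigrated and 2.89, 4.84 and 5.05 CPM in migrated libraries, and the groups overlapped. Neither passed, with values of 0.89 ± 0.34, adjusted p = 0.0416, and -0.72 ± 0.35, adjusted p = 0.102. The skin value without nonmigrated replicate 3 was -0.39, adjusted p = 0.372. Of its 10260 exon bases, 1954 overlap genes on the opposite strand and 269 overlap other genes on the same strand. The strand setting of the library kit is not given in the sources used here, so reads of Ccr9 and its neighbours may not have been separated and its level is uncertain.

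Upstream sequence was taken from RefSeq (GRCm38.p6), which held windows for 7 of the 10 receptors. Ccr7, Ccr10 and Cxcr5 were not among them. Of the 10 genes, 5 (Ccr4, Ccr8, Ccr9, Cxcr5 and Cxcr6) lie on chromosome 9. Up to 250 bases before the start were searched on both strands for 6 short motifs, which were TGANTCA for AP-1, TGTGGT for RUNX factors, AGGTGTG for T-box factors, AGATAA for GATA factors, GGGCGG for the GC box and TATAAA for the TATA box. Ccr4 and Cxcr3, called higher in migrated cells at both sites, and Cxcr4, called in no comparison, are printed here so that their upstream regions can be read side by side, with stretches inside annotated exons left out. Capitals mark motif matches. The runs are Ccr4 at chr9:114496563-114496794, Cxcr3 at chrX:101734270-101734397 and Cxcr4 at chr1:128592300-128592549, all on the minus strand and written 5′ to 3′.
Ccr4: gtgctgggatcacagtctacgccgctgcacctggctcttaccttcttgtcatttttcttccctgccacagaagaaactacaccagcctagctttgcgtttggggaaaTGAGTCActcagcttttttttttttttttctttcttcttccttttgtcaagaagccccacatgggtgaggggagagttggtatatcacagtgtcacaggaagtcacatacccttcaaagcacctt
Cxcr3: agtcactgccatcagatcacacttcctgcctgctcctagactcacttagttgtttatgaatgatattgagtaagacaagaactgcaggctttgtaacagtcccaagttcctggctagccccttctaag
Cxcr4: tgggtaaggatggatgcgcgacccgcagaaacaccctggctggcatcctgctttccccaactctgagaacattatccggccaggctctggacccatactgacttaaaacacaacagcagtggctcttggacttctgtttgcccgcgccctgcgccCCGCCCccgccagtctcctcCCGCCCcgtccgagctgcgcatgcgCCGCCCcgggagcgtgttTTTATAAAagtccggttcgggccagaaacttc
The Ccr4 run held 1 AP-1 match, TGAGTCA, 143 to 137 bases before the start, a motif found in 6.75% of all 32851 promoter windows. The Cxcr4 run held 3 GC boxes, read as CCGCCC on this strand, and a TATA box 30 to 25 bases before the start that overlaps a match on the other strand. These motifs were in 32.7% and 12.4% of all windows. The printed Cxcr3 run held none of the 6, but it lacks 122 exon bases next to the start. In these unprinted bases there was a RUNX match, read as ACCACA on this strand, 110 to 105 bases before the start. That motif was in 14.0% of all windows. Matches are letters in a window and not evidence that a factor binds.

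Cells that stayed in the joint were then compared with cells that stayed in skin. No receptor was called, where 3.05% of 16777 genes were called. At an unadjusted p under 0.05 there were 6 receptors with a difference, against 40.5% of all genes, and DESeq2 called 2, Ccr7 and Cxcr6, against 5.26%. At an adjusted p under 0.05, 3 were lower in joint, where 8.86% of genes passed as lower and 14.3% in either direction. These were Ccr7 with -2.62 ± 0.51 and adjusted p = 0.00348, Cxcr6 with -1.52 ± 0.38 and adjusted p = 0.0137, and Ccr6 with -1.49 ± 0.41 and adjusted p = 0.0208. Without skin nonmigrated replicate 3, the same 3 receptors were called at the stricter threshold, where 7.65% of genes were called. Their values were then -3.04, -1.90 and -1.88, with adjusted p = 0.000123 for Ccr7, 9.54e-05 for Cxcr6 and 0.00053 for Ccr6. In that library 8 of the 10 receptors, all but Ccr9 and Cxcr3, were at their lowest of the skin nonmigrated group. With all libraries, Cxcr4 was the one receptor with a higher value in joint than skin nonmigrated cells, 0.98 ± 0.24 with adjusted p = 0.012, and its libraries did not overlap. Ccr9 had a value of -0.05, which was 0.27 without skin nonmigrated replicate 3. Mature dendritic cell markers moved with the receptors, 2 of the 4 tested being called lower in joint and 4 of 4 passing an adjusted p under 0.05, with a median log2 fold change of -2.78. Of the T cell markers 0 of 6 were called and 6 of 6 were lower at an adjusted p under 0.05, with a median of -1.36. Gamma delta T cell markers had 1 of 3 called lower, with a median of -0.64. B cell markers went the other way, with 4 of 5 called higher in joint and a median of 4.12. The part of these cells in the result was not tested.

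**Figure D4:**
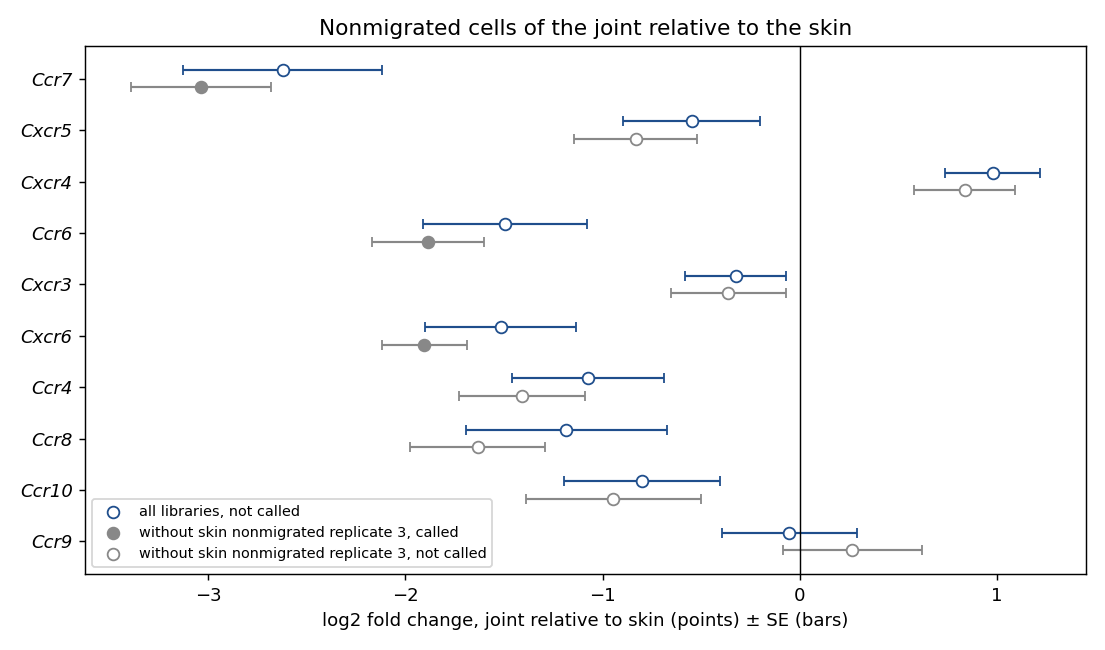
Log2 fold change of each receptor in nonmigrated cells, joint over skin, with all libraries and without skin nonmigrated replicate 3. Filled points are called, open points are not, and bars are SE. Ccr7 moves from -2.62 to -3.04 and becomes called.

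Cells that had reached the node from joint and from skin differed less. No receptor was called, and 0 of 16777 genes were (0%). At an unadjusted p under 0.05 there were 4 receptors with a difference, against 16.5% of all genes, and DESeq2 called 1, Ccr9, against 0.618%. Beside Ccr9, these were Ccr6 (1.34, adjusted p = 0.104), Cxcr5 (1.01, adjusted p = 0.144) and Cxcr4 (0.72, adjusted p = 0.156), all higher in joint. Ccr9 had the largest value, 1.55 ± 0.35 with adjusted p = 0.0494, and was the only receptor under an adjusted p of 0.05, where 1.14% of genes passed. Its joint migrated libraries (14.1, 10.5 and 13.0 CPM) lay above the skin ones (2.89, 4.84 and 5.05 CPM). B cell markers summed to 588 to 831 CPM in joint and 96.2 to 179 CPM in skin migrated libraries. Of these, 0 of 5 were called and 5 of 5 were higher in joint at an adjusted p under 0.05, with a median of 2.34. Their part in the receptor differences was not tested. Ccr7 had a value of 0.09 ± 0.47, adjusted p = 0.95. With this SE, a difference several times the SE in either direction could also have missed the threshold, as Ccr6 did at 1.34 ± 0.38.

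Whether leaving the tissue changed a receptor by a different amount in joint and skin was tested with an interaction term. No receptor was called, where 0.119% of genes were. At an unadjusted p under 0.05 there were 8 receptors with a term, each positive, against 26.3% of all genes with a term of either sign, and DESeq2 called 1, Ccr6, against 2.21%. The terms were 2.84 ± 0.56 for Ccr6, adjusted p = 0.0124, and 2.71 ± 0.68 for Ccr7, adjusted p = 0.0348, and 6.13% of genes passed at an adjusted p under 0.05. Without skin nonmigrated replicate 3, Ccr6 had a term of 3.23 with adjusted p = 0.000319 and Cxcr6 a term of 2.24 with adjusted p = 0.000612, and both were called, where 1.84% of genes were. The Ccr7 term was then 3.13 with adjusted p = 0.00143, just short of the threshold. Mature dendritic cell markers had a median term of 2.35 with 3 of 4 positive at an adjusted p under 0.05, and T cell markers a median of 1.25 with 2 of 6. Gamma delta T cell markers had a median of 1.70 with 1 of 3 positive at that level. B cell markers had a median of -1.96 with 2 of 5 negative at that level. Their part in the receptor terms was not tested. The joint and skin fold changes share no libraries.

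Migrated cells of the inflamed sites were set against the steady-state groups, which share the migrated libraries with the comparisons above. In the joint 5 receptors were called higher and 2 lower in the inflamed group, where 12.4% of 17107 genes were called higher, 3.50% lower and 15.9% in either direction. In skin 5 were called higher and 3 lower, against 16.6% higher, 8.51% lower and 25.1% in either direction. The 5 called higher were Ccr4, Ccr8, Ccr10, Cxcr3 and Cxcr6 at both sites. Cxcr5 and Ccr9 were called lower at both sites, and Ccr6 in skin.

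**Figure D5:**
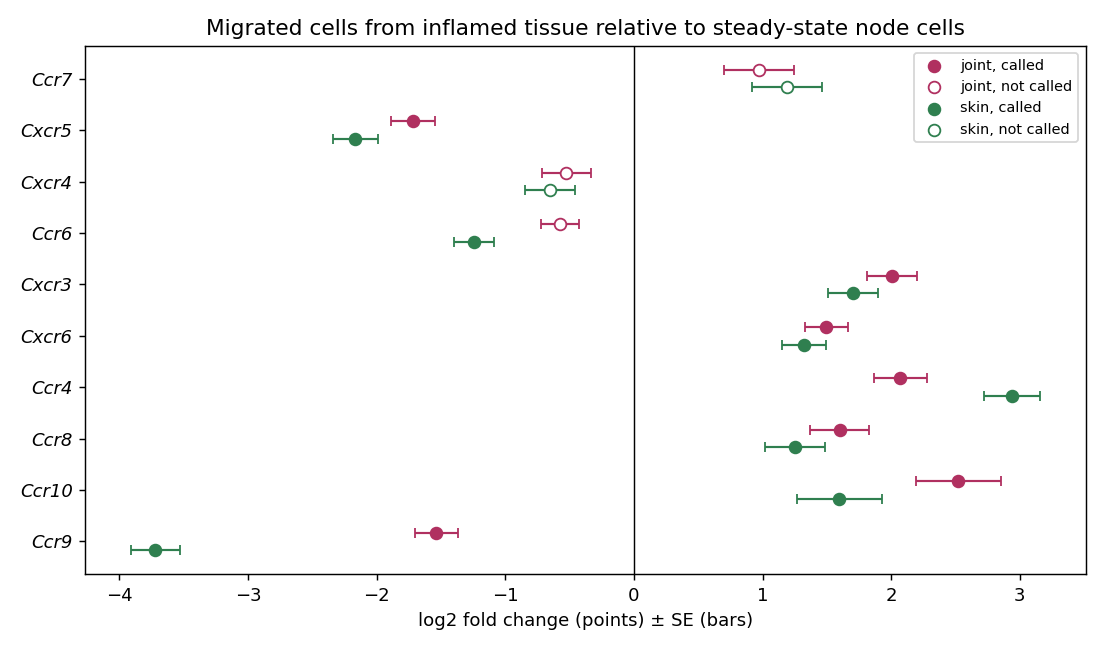
Log2 fold change of each receptor, migrated over steady state, in joint (pink) and skin (green). Filled points are called, open points are not, and bars are SE. Ccr9 and Cxcr5 lie left of 0 at both sites, and Ccr4 lies at 2.07 in joint and 2.94 in skin.

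Ccr4 was at 9.99, 17.0 and 14.4 CPM in joint and 6.28, 6.30 and 7.12 CPM in skin steady-state libraries, all below every migrated library. Its log2 fold changes were 2.07 ± 0.21, adjusted p = 2.7e-06, and 2.94 ± 0.22, adjusted p = 9.4e-08. Cxcr3 was at 27.8, 21.7 and 23.0 CPM and 28.5, 25.6 and 20.7 CPM in the steady-state groups, close to the nonmigrated levels. It was higher in migrated cells by 2.00 ± 0.20 in joint, adjusted p = 2.15e-06, and 1.70 ± 0.20 in skin, adjusted p = 5.39e-06. Cxcr6 was at 38.3, 30.5 and 36.3 CPM and 24.6, 30.6 and 38.6 CPM, with values of 1.50 ± 0.17 and 1.32 ± 0.17 and adjusted p = 7.74e-06 and 1.48e-05. All 4 regulatory T cell markers were called higher in migrated cells than in steady state at both sites. Natural killer and innate lymphoid markers were called higher for 3 of 4 at both sites, with medians of 1.98 in joint and 1.39 in skin. Gamma delta T cell markers had 2 of 3 called higher and 1 lower at both sites, and 0 of 6 T cell markers were called at either. The part of these cells in the receptor differences was not tested.

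Ccr8 was at 4.91, 5.10 and 5.19 CPM in joint and 5.22, 4.54 and 4.28 CPM in skin steady-state libraries. The joint difference was 1.60 ± 0.23, adjusted p = 6.97e-05. The skin difference of 1.25 ± 0.23, adjusted p = 0.000385, lost its call without skin migrated replicate 1, where it was 0.84 with adjusted p = 0.0013, and without any of skin steady-state replicates 1, 2 and 3. Ccr10 was at 0.734, 0.589 and 1.13 CPM and 1.21, 0.972 and 0.977 CPM, with 2.52 ± 0.33 in joint, adjusted p = 3.04e-05. Its skin value of 1.59 ± 0.33, adjusted p = 0.00088, lost its call in each of the 6 fits without 1 library, with adjusted p from 0.0021 to 0.00629.

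Ccr7 was at 453, 610.4 and 764 CPM in joint and 564, 459 and 456 CPM in skin steady-state libraries. Joint migrated replicate 1, at 680.0 CPM, lay inside the joint steady-state range, while the skin groups were apart. The log2 fold changes of 0.97 ± 0.27, adjusted p = 0.00943, and 1.19 ± 0.27, adjusted p = 0.00192, missed the threshold. Without joint migrated replicate 1 the joint value was 1.22 with adjusted p = 0.000555 and was called. The Ccr7 level of the steady-state groups stood beside mature dendritic cell marker sums of 14.2 to 20.7 CPM.

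Cxcr5 was highest of all in the steady-state libraries, at 215, 225 and 226 CPM in joint and 181, 151 and 122 CPM in skin. It was lower in migrated cells, by -1.71 ± 0.17, adjusted p = 2.62e-06, and -2.17 ± 0.18, adjusted p = 2.12e-07. Ccr6 was at 91.5, 102 and 81.3 CPM and 62.9, 59.0 and 50.4 CPM, with -0.57 ± 0.15 in joint, adjusted p = 0.00625, not called, and -1.24 ± 0.16 in skin, adjusted p = 1.25e-05. All 5 B cell markers were called lower in migrated cells than in steady state at both sites, and their part in the Cxcr5 and Ccr6 differences was not tested.

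Ccr9 was at 40.1, 38.1 and 33.1 CPM in joint and 52.5, 57.2 and 62.5 CPM in skin steady-state libraries, above every inflamed library. It was lower in migrated cells by -1.53 ± 0.17, adjusted p = 5.93e-06, and -3.72 ± 0.19, adjusted p = 3.9e-09. Cxcr4 was at 588, 688 and 768 CPM and 506, 439 and 405 CPM, with -0.52 ± 0.19, adjusted p = 0.0369, and -0.65 ± 0.19, adjusted p = 0.00978, neither called. The interaction of site and inflammation was called for Ccr9 alone, where 0.889% of genes were, with a term of 2.19 ± 0.25 and adjusted p = 0.000188. The steady-state groups are titled PBS and KG in joint and Naive in skin. Their neutrophil markers summed to 384 to 743 CPM in joint and 10.4 to 17.1 CPM in skin. Inflammation, type of control and sorted population cannot be told apart in this term. Plasmacytoid dendritic cell markers, 4 in the list, moved in part with Ccr9. Against steady state 1 was called higher and 1 lower in joint and 2 lower in skin (median -1.85), and in the interaction 1 was called and 3 of 4 were positive at an adjusted p under 0.05 (median 2.05). B cell markers were positive for 5 of 5 in the interaction at that level. The part of either in the Ccr9 result was not tested. The Ccr9 interaction call was lost without joint steady-state replicate 3 (adjusted p = 0.00105), skin steady-state replicate 2 (0.00106) or skin steady-state replicate 3 (0.00114).

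The joint and skin steady-state groups were also compared. Site and type of control cannot be told apart in this comparison. No receptor was called, where 1.44% of genes were. At an unadjusted p under 0.05 there were 5, against 21.7% of all genes, and DESeq2 called 1, Ccr4, against 1.68%. Ccr4 was higher in joint by 1.06 ± 0.21, adjusted p = 0.00678, and its libraries did not overlap. Ccr9 had -0.64 ± 0.16, adjusted p = 0.0285.

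The order of the 6 group means showed 3 kinds of pattern. Ccr4, Ccr7, Ccr8, Ccr10 and Cxcr3 had the joint migrated mean highest and the skin migrated mean next, with overlapping libraries, and the joint nonmigrated mean lowest. Ccr4 means fell from 56.6 and 49.2 CPM in the migrated groups to 13.8 CPM in joint steady state, and the 4 lower groups overlapped from neighbour to neighbour. For Cxcr3 the 4 lower means lay within 21.2 to 26.5 CPM and neighbours overlapped. For Ccr7 the steps from skin migrated to joint steady state (1102 to 609 CPM), from skin steady state to skin nonmigrated (493 to 246 CPM) and from there to joint nonmigrated (40.1 CPM) were free of overlap. Cxcr5, Ccr6, Ccr9 and Cxcr4 were highest in a steady-state group. Cxcr5 fell in order from joint steady state through skin steady state, joint migrated and skin migrated to the nonmigrated groups, and only the nonmigrated groups overlapped. Cxcr6 was the one receptor highest in skin nonmigrated cells, at 107 ± 57.9 CPM (SD, n = 3), with libraries that overlapped both migrated groups.

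Likeness between genes was measured as Pearson's r of log2(CPM + 1) over the 18 libraries. These libraries fall into 6 groups with different cell mixtures and depths, so r mainly describes group levels and is given with no test. Among the receptors the closest pairs were Ccr6 with Cxcr5 (r = 0.97), Ccr10 with Cxcr3 (r = 0.95) and Ccr4 with Ccr8 (r = 0.91), and the most opposed pair was Ccr9 with Cxcr6 (r = -0.61). Over all genes that passed the filter, the gene most like Ccr4 was Ankrd6 (r = 0.98), followed by Icos, a costimulatory receptor of activated and regulatory T cells (r = 0.98), which was also second for Ccr8 (r = 0.94). Ccr8 was nearest to Il18r1, a receptor chain for interleukin 18 (r = 0.96), and also resembled Il2rb, a receptor chain for interleukin 2 (r = 0.94). Cxcr5 was nearest to Gdf11 (r = 0.99), and also resembled H2-Oa, an antigen-presentation gene of B cells (r = 0.99). Ccr7 was nearest to Zeb1, a transcription factor (r = 0.97), Cxcr4 to Hes1, a target of Notch (r = 0.92), and Cxcr3 to Klre1, a lectin-like receptor of natural killer cells (r = 0.96). The nearest genes of the others were Trp53i11 for Ccr6 (r = 0.98), Tcaim for Ccr9 (r = 0.96), Bmp7 for Ccr10 (r = 0.96) and B4galnt4 for Cxcr6 (r = 0.97).

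For the chemokines that these receptors bind, the counts below can be read against all genes, of which 8.80% were called higher and 12.6% lower in joint migrated cells, and 8.49% and 12.4% in skin. Of 16 listed ligands 13 were tested in joint, and 1 was called higher (7.7%) and 5 lower (38.5%) in migrated than in nonmigrated cells, with a median log2 fold change of -1.75. In skin 0 of 13 were higher and 5 lower (38.5%), with a median of -1.15. The Cxcr3 ligand Cxcl9 was at 78.9 to 97.9 CPM in joint nonmigrated and 2.73 to 4.39 CPM in joint migrated libraries, a log2 fold change of -4.59, while Cxcr3 itself was called higher there. Cxcl10 and Cxcl11 were called lower at both sites as well, at -2.23 and -3.47 in joint and -3.22 and -5.15 in skin. Ccl8, a ligand of Ccr8, was called lower as well, at -4.93 in joint and -6.47 in skin, or -4.90 in skin without nonmigrated replicate 3. Ccl1, the other ligand of Ccr8, was called lower in skin at -3.17. The stromal chemokine Cxcl12, the ligand of Cxcr4, was at 11.5 to 31.8 CPM in joint nonmigrated and at only 0.0616 to 0.150 CPM, a level of a few reads, in joint migrated libraries. Fibroblast markers summed to 54.5 to 171 CPM in the same nonmigrated and 0.862 to 1.52 CPM in the migrated libraries. The part of fibroblast RNA in the Cxcl12 level was not tested. The Ccr4 ligand Ccl22, by contrast, was at 45.0 to 65.4 CPM in joint nonmigrated and 313 to 953 CPM in joint migrated libraries, a log2 fold change of 3.45. Ccl22 was the only ligand called higher in either site, and in skin its value of 1.42, adjusted p = 0.0228, was not called. Ccl17, the other ligand of Ccr4, was lower in migrated cells, at -1.75 in joint, adjusted p = 0.00376, and -1.15 in skin, adjusted p = 0.0331. Neither was called. Relative to steady state, Ccl17 was called higher at both sites, at 7.18 in each. Against steady state, 6 of 12 ligands (50.0%) were called higher and 0 lower in joint, and 7 (58.3%) higher and 1 (8.3%) lower in skin, where the shares of all genes were 12.4% higher and 3.50% lower in joint and 16.6% and 8.51% in skin. The Cxcr6 ligand Cxcl16 was at 239 to 534 CPM in joint migrated and 1.52 to 2.54 CPM in joint steady-state libraries. The 1 called lower in skin was Ccl25, the ligand of Ccr9, at 1.95 to 2.61 CPM in skin migrated and 5.65 to 7.27 CPM in skin steady-state libraries. It was named after its values were seen.

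Adhesion and egress genes were tested as a list of 13. In joint migrated cells 6 (46.2%) were called higher and 1 (7.7%) lower, with a median of 1.00, and in skin 4 (30.8%) higher and 2 (15.4%) lower, with a median of 0.53, beside the shares of all genes given above. Gpr183, a receptor for oxysterols that positions B cells and dendritic cells, was called higher at both sites, at 2.17 in joint and 1.95 in skin. Itgae, the integrin that binds E-cadherin, was at 7.33 to 14.3 CPM in joint nonmigrated and 140.4 to 205 CPM in joint migrated libraries, a log2 fold change of 3.84. In skin it was at 43.9 to 123 CPM in nonmigrated and 93.1 to 134 CPM in migrated libraries, which overlapped, with 0.30 and adjusted p = 0.469. Against steady state 5 (38.5%) were called higher and 0 lower in joint, and 4 (30.8%) higher and 1 (7.7%) lower in skin. Of 19 genes of receptor signalling and desensitisation, 1 (5.3%) was called higher and 3 (15.8%) lower at each site, close to the shares of all genes. The 1 was Grk3, a kinase that silences active receptors, at 1.71 in both, with libraries of 80.2 to 106 CPM in joint nonmigrated and 157 to 414 CPM in joint migrated cells. Without skin nonmigrated replicate 3 its skin value was 1.61 and was not called, adjusted p = 0.00154. Rgs18 was called lower at -3.13 in joint and -3.34 in skin, or -2.35 in skin without that library, beside Arrb1 at -2.40. Against steady state 2 (10.5%) were called higher and 0 lower in joint, and 6 (31.6%) higher and 2 (10.5%) lower in skin.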

How the data were processed

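According to the labels and methods, the authors trimmed 100-base paired reads with Trim Galore, aligned them to mm10 with TopHat2 and made the deposited read counts per Ensembl 87 gene with HTSeq. The submitters' notes also name FastQC, Cufflinks and DESeq2, without versions. Here 5 summary lines (11.3% to 15.1% of a library) were left out, and 49326 of 49585 genes were matched to GENCODE M21 for symbols and exon length.

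Counts were tested in edgeR 4.0.16 (R 4.3.3, TMM, filterByExpr with a minimum count of 10, quasi-likelihood F test, Benjamini-Hochberg adjustment over all genes tested). A fit of the 12 inflamed libraries (16777 genes) gave the comparisons of migrated and nonmigrated cells, and a fit of the 12 node libraries (17107 genes) those with steady state. In counts simulated for the joint comparison, 44 of 50 genes at a log2 change of -4, 35 at -2, 34 at 2 and 45 at 4 were called, with 1 of 16278 unchanged genes. Alternatives were DESeq2 1.42.0, its size factors, no filter, other sets of samples, a replicate block, thinning to the smallest library, a threshold of 0.05 and leaving out each library. The threshold of 0.001 is stricter than the 0.05 of the study's methods. Members and lists were chosen with earlier results of these data known. All 10 receptors are named, with at most the 4 called genes of largest change from each list in each comparison, whose values may also be given in other comparisons, and up to 3 of the genes most like each receptor. Of the adhesion list, 1 gene is counted but its values are not reported here. Figures were drawn with matplotlib 3.10.9. The level of 3 reads covers counting error only, whereas SD and SE include the spread between libraries.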

Additional observations from a re-analysis of the deposited data

Results flagged for a closer look

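Among 109 site-dependent differences tested over the receptors and the listed genes, 15 passed an adjusted p under 0.05 in edgeR's interaction term, and 3 of these were receptors. This rule sets no limit on the size of the term, and the share of all genes passing it was not counted. With a term above 1 in size also required, 1029 of 16777 genes passed for migration and 1045 of 17107 for inflammation. Whether the listed genes exceed the rate of all genes is thus not known. For migration, the term is the joint log2 fold change of migrated over nonmigrated cells minus the skin one. It was 2.84 for Ccr6 and 2.71 for Ccr7. Positive terms were also found for Ccl1 (3.1), Itgae (3.54), Gcnt1 (1.65), Arrb1 (0.84) and Gng2 (0.71), and negative terms for Cxcl9 (-2.81), Klf2 (-1.51) and Itga4 (-1.21). For inflammation, the term is the joint log2 fold change of migrated over steady-state cells minus the skin one. This term also carries any difference between the PBS and Naive controls and between the sorted populations. It was 2.19 for Ccr9, whose fall was smaller in joint than in skin, and it was negative for Fut4 (-1.75), Grk5 (-1.18), Cxcl10 (-1.08) and Itgb1 (-0.6). Causes of these differences were not tested, and the skin nonmigrated group includes the library that stood apart from its replicates.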

How the results depend on the processing

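The counts of receptors called depended on the settings as follows. With all libraries, 6 were called for joint migrated over nonmigrated cells, and the settings other than leaving out a library gave 6 to 8. Over all genes these settings called 2826 to 5757, against 3586 in the main fit. In skin 4 were called, but 1 when only the groups compared were fitted and 1 to 4 when a library was left out. All genes called in skin went from 3508 of 16777 to 2111 of 14786 when only the groups compared were fitted. For joint against skin nonmigrated cells the count of 0 became 2 with DESeq2, 3 at an adjusted p under 0.05, 1 with all 18 samples in the fit, 1 with no filter and 0 to 3 when a library was left out. The background of all genes rose too, from 511 of 16777. In the same order it was 1541 of 29303, 2400 of 16777, 1104 of 18156 and 1014 of 29325, and 120 to 1372 genes without a library. For joint against skin migrated cells 0 became 1 with DESeq2 and 1 at an adjusted p under 0.05, where all genes went from 0 to 181 of 29303 and 191 of 16777. For the interaction of site and migration 0 became 1 with DESeq2, 2 at an adjusted p under 0.05, 1 with all 18 samples, 1 with no filter and 0 to 2 when a library was left out. Its background went from 20 of 16777 genes to 648 of 29303, 1029 of 16777, 301 of 18156 and 290 of 29325 in that order, and to 7 to 330 genes without a library. For skin migrated over steady state 8 became 5 with all 18 samples and 6 to 7 when a library was left out. Genes called there went from 4297 of 17107 to 3958 of 18156 with all 18 samples and to 3525 to 3980 without a library. For the steady-state groups 0 became 1 with DESeq2, 1 at an adjusted p under 0.05 and 1 with no filter. Their background went from 246 of 17107 genes to 493 of 29392, 665 of 17107 and 521 of 29409. For the interaction of site and inflammation 1 became 0 with all 18 samples, and 0 to 1 when a library was left out. Here all genes went from 152 of 17107 to 117 of 18156 with all 18 samples, and to 48 to 210 genes without a library. The causes were not tested.

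Same-numbered deviations of migrated and nonmigrated libraries correlated at 0.021, 0.254 and 0.195 in joint and 0.173, 0.0735 and 0.148 in skin. Unlike-numbered ones ran from -0.218 to 0.0385 in joint and from -0.123 to 0.0294 in skin. Each same-numbered value was the highest for its migrated library. A pairing by replicate number was therefore not excluded, and the main fits did not use it. With the replicate block the skin migrated count was 1 (Ccr4), where 2750 of 16777 genes were called. The other counts stayed within 1.5 times of those without it.

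Of the single-gene results, 1258 kept direction and side of the threshold, 40 lost and 44 gained a call, and 18 changed sign, none of them called. Cxcr4 in joint migrated over nonmigrated cells ranged from -0.10 to 0.23 when a library was left out, below 0 without joint migrated replicate 1 and joint nonmigrated replicates 1 (-0.083) and 2 (-0.057). Ccr9 in joint against skin nonmigrated cells was 0.0028 with no filter and 0.083 with the block, and ranged from -0.40 to 0.27 (0.064 without skin nonmigrated replicate 2, the top without replicate 3). Ccr7 in joint against skin migrated cells was -0.082 with the block and ranged from -0.23 to 0.38 (-0.012 without skin migrated replicate 2, the lowest without joint migrated replicate 3). Cxcr4 in the migration interaction ranged from -0.43 to 0.025, above 0 without skin migrated replicate 3. Cxcr3 between steady-state groups ranged from -0.17 to 0.046, above 0 without joint replicate 2 (0.0092) and skin replicate 1. In the inflammation interaction Ccr7 ranged from -0.51 to 0.058, above 0 without joint migrated replicate 1, joint steady-state replicate 3 (0.032) and skin migrated replicate 3 (0.0065). Cxcr4 there ranged from -0.023 to 0.44, below 0 without joint migrated replicate 1 and skin migrated replicate 2 (-0.0052). Depth limits Ccr10 most, with 11 to 342 reads.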
